A study of Rattus norvegicus with 30 samples.

Results

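Astrocyte genes were followed across METH self-administration and foot-shock in the rat: Gfap (ENSRNOG00000002919), S100b (ENSRNOG00000001295), Aqp4 (ENSRNOG00000016043), Gja1 (ENSRNOG00000000805), Slc1a2 (ENSRNOG00000005479) and Slc1a3 (ENSRNOG00000016163). They were chosen by Ensembl identifier, each kept only if the count files put it on the chromosome known for that gene, and 6 of the 32552 genes in the files met this rule. The files give identifiers without symbols, so the symbols rest on the rule and on the chromosome. RNA from brain tissue of 30 adult male Sprague-Dawley rats, wild type, was sequenced, with 1 library per rat. The tissue field of the labels reads dorsal striatum, while the protocol text and the methods of the study name the hippocampus, and which applies was not settled here because 0 of the 32552 identifiers matched a gene table that would have given the markers of either region. CT rats (n = 7) pressed for saline over 21 days and had no foot-shocks. SR rats (n = 7) and SS rats (n = 6) took METH for 21 days and then received foot-shocks on part of their METH presses for 8 days, SR rats being those that kept pressing (shock-resistant) and SS rats those that cut down (shock-sensitive), so that these groups were formed by behavior and not assigned. YSR rats (n = 5) and YSS rats (n = 5) took saline and were yoked to SR or SS rats, whose shocks they shared. Sample titles also carry the code XII (11 rats) or XIII (19 rats), here called cohort, and a letter L or R, none of which the labels explain. Cohort was spread unevenly, with 1 CT, 4 SR, 2 SS, 3 YSR and 1 YSS rat in XII, and all 5 YSR rats carried the letter R.

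Astrocytes are the glial cells that take up glutamate released at synapses, regulate water and potassium around neurons and blood vessels, and pass ions and metabolites to each other through gap junctions. After injury or strong stimulation they can become reactive, a state known for larger cell bodies and more of the filament protein GFAP, and high, toxic doses of METH are known to cause it in the rodent brain. The question of the comparisons was whether the RNA of such genes differed with METH, with foot-shock, or with the response of a rat to punishment. In bulk tissue, fewer astrocytes and less RNA per astrocyte cannot be told apart.

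Each library held between 14584340 and 19997820 counts, and a member had between 3683 and 24063 counts in a library, so that counting error was small beside the differences between rats. Together the 6 genes took from 0.386% of the counts, in CT rat XIII-L11, to 0.528%, in SS rat XII-L03. All of them passed the filter on low counts, which kept 15797 genes, and they stood between the 97.2 and the 99.5 percentile of those genes by level. Compared per kilobase of counted exon, S100b had the highest level, with 706 ± 67.6 CPM per kb (mean ± SD, n = 30), and none of its libraries overlapped with any library of Slc1a2, the next in order at 369.7 ± 57.3 CPM per kb. Gfap followed at 268 ± 40.7, Slc1a3 at 215 ± 20.3, Gja1 at 156 ± 14.4 and Aqp4 at 121 ± 12.6 CPM per kb. From Slc1a2 down, the libraries of each gene overlapped in range with those of the next gene. The Slc1a2 model in the files is short, 882 exonic bases in 5 blocks, so its value stands for that stretch only and reads elsewhere in the gene were not counted.

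The count files place Gfap at chr10:90990762-90999506 on the minus strand, with 3661 exonic bases, and S100b at chr20:13130636-13142856 on the minus strand, with 1484. Aqp4 lies at chr18:6765945-6782996 on the minus strand (5419 exonic bases) and Gja1 at chr20:37876650-37889089 on the plus strand (3127). The transporters Slc1a2 and Slc1a3 lie at chr3:92640752-92665644 on the plus strand and at chr2:57860834-57935363 on the minus strand (3982 exonic bases). The genome build and the use of strand in counting are not given in the sources used here. No other gene model in the files overlapped the span of any member (0 for each of the 6), and Slc1a2 and Slc1a3, which belong to the same gene family, both had an exon block of 135 bases and another of 195.

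None of the 6 genes differed between groups after adjustment over all genes tested. Across 8 pairwise comparisons, the contrasts METH vs. yoked, yoked vs. CT and the interaction, and the test of any difference among the 5 groups, edgeR's quasi-likelihood test gave 0 adjusted p-values under 0.05 in 72 tests of members and 4 unadjusted ones, all of them of Aqp4. DESeq2 gave 0 adjusted calls and the same number of unadjusted calls as edgeR in each of the 12 comparisons. By edgeR, 0% to 0.171% of all 15797 genes passed with the adjusted p in these comparisons, and 3.29% to 10.5% with the unadjusted p. In the edgeR fit with group alone, the unadjusted 95% confidence intervals of the fold changes between pairs of groups had outer limits. The lowest was 0.714 (Gfap in YSR vs. YSS) and the highest 1.4 (Slc1a2 in SS vs. YSS). These limits hold for that fit only, and they do not show that levels were equal. SR, SS, YSR and YSS were each compared with the same CT rats, so those comparisons share their control samples.

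Gfap encodes the glial fibrillary acidic protein, the intermediate filament whose increase is the classic sign of reactive astrocytes. Among CT rats, the lowest, median and highest Gfap levels were 787, 929 and 1085 CPM, with TMM normalization. Among SR rats they were 741, 1036 and 1175 CPM. Among SS rats they were 823, 974 and 1294 CPM. The top of the SS range was set by both of its XII rats, which were the highest of all 30, while the SS rats of XIII lay within the range of the CT rats. The YSR rats had Gfap levels of 793, 797, 898, 983 and 1020.3 CPM. The YSS rats had 916, 938, 1104, 1128 and 1191 CPM. Every pair of groups overlapped, and the YSS rats lay above the CT median except XIII-R04. By mean ± SD the order was YSS (1056 ± 122 CPM, n = 5), SS (1043 ± 199, n = 6), SR (989 ± 165, n = 7), CT (918 ± 105, n = 7) and YSR (898 ± 104, n = 5), and each step between neighbours was smaller than the SD of either group. The log2 fold change was 0.20 (SE 0.11, 95% CI -0.033 to 0.43) in YSS vs. CT, with an adjusted p of 0.98 by edgeR and an exact two-sided permutation p of 0.0694. In SS vs. CT it was 0.18 (SE 0.11, 95% CI -0.039 to 0.41), adjusted p = 0.997 by edgeR, with 0.13 when cohort was in the fit and -0.0071 within XIII alone. Leaving out 1 library moved the SS vs. CT value between 0.11 and 0.24, with an unadjusted p under 0.05 by edgeR in 2 of 30 fits. In SR vs. CT the log2 fold change was 0.11 (SE 0.10, 95% CI -0.11 to 0.32), with 0.0099 when cohort was in the fit and -0.038 within XIII alone. The widest Gfap difference was between the yoked groups, -0.23 (SE 0.12, 95% CI -0.49 to 0.021) in YSR vs. YSS, with an unadjusted p of 0.0703 by edgeR and an exact permutation p of 0.0635. With cohort in the fit that value was -0.32 and its unadjusted p 0.0096, and the smallest adjusted p among the planned settings other than leaving out a library was 0.984. With only the groups compared in the fit, Gfap stood at -0.24 in YSR vs. YSS (unadjusted p = 0.0143, adjusted p = 0.999 by edgeR). In YSS vs. CT that setting gave 0.20 (unadjusted p = 0.0243, adjusted p = 0.674 by edgeR).

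S100b encodes a calcium-binding protein that astrocytes make and secrete, and that some cells of the oligodendrocyte lineage also contain. The lowest, median and highest S100b levels were 920.2, 1039 and 1141 CPM in CT rats. In SR rats they were 932, 1078 and 1198 CPM. In SS rats they were 872, 989 and 1375 CPM. A single library, SS rat XII-L03, lay above all the others, and the same rat was also the highest for Gfap. The YSR rats had S100b levels of 999, 1002, 1045, 1051 and 1090.0 CPM. The YSS rats had 945, 1020.3, 1026, 1041 and 1152 CPM. The groups overlapped throughout and the YSR rats lay closest together. Group means ran only from 1024 CPM in CT to 1081 CPM in SR, a step of less than the SD of the SR group. The S100b difference farthest from 0 was 0.078 (SE 0.071, 95% CI -0.067 to 0.22) in SR vs. CT, with an adjusted p of 0.705 by edgeR and an exact permutation p of 0.239, and with cohort in the fit it was 0.0026.

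**Figure D1:**
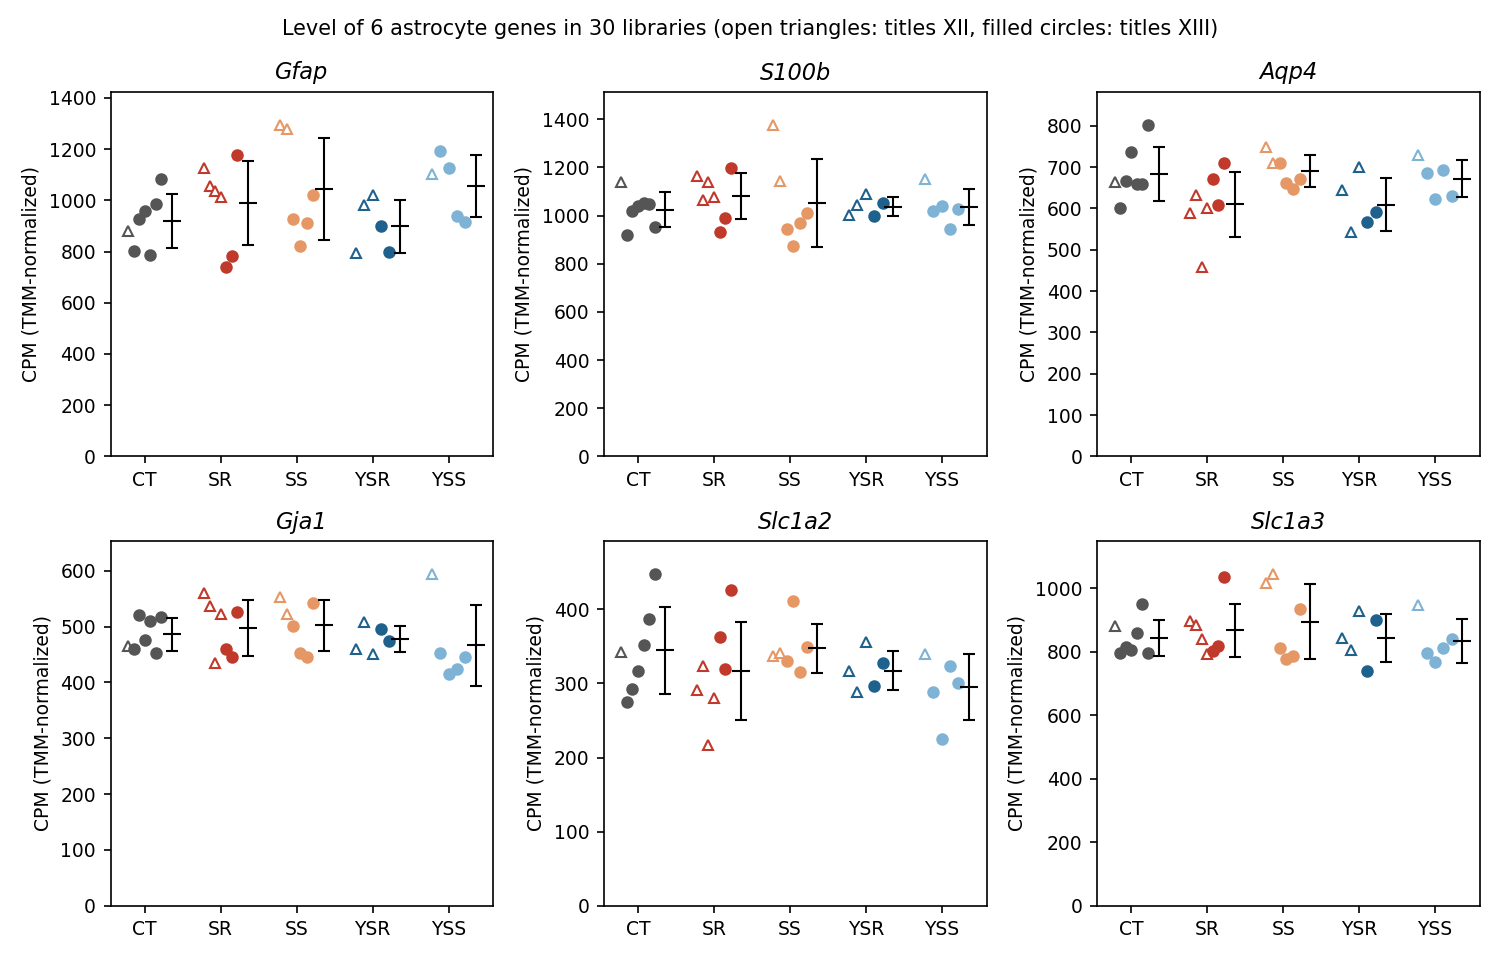
TMM-normalized CPM (vertical axes from 0) of each gene in each of the 30 libraries, by group; open triangles are rats with XII in the title, filled circles those with XIII, and the black dash and bar beside each group are the mean ± SD. The groups overlap for every gene, and in the Gfap panel the 2 SS rats of XII lie above all other rats, at 1279 and 1294 CPM.

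Aqp4 encodes aquaporin-4, the water channel of astrocyte endfeet around blood vessels. In the edgeR fit with group alone it was the only member with an unadjusted p under 0.05 in any of the 12 comparisons. Of the 48 exact permutation tests of members, 2 had an unadjusted p under 0.05, Aqp4 in SR vs. SS and Slc1a2 in SS vs. YSS. Permutation tests were not run for the other genes. Aqp4 levels in CT rats had a lowest, median and highest value of 600.5, 665 and 802 CPM. SR rats had 458, 609 and 709.8 CPM. SS rats had 646, 690.4 and 748 CPM. The SS rats lay close together in the middle of the CT range, and 5 of the 7 SR rats lay below the lowest SS rat, with XII-R05 the lowest of all 30. The YSR rats had Aqp4 levels of 543, 567.5, 591, 644 and 701 CPM. The YSS rats had 623, 629, 686, 692 and 729.5 CPM. The YSR rats reached lower than the YSS rats, and both ranges overlapped with that of the CT rats. In order of the mean ± SD, the levels were 691 ± 38.1 CPM in SS, 684 ± 65.2 in CT, 672 ± 45.2 in YSS, 610.1 ± 79.3 in SR and 609 ± 63.2 in YSR. Between YSS and SR the step exceeded the SD of the YSS group but not that of the SR group, and all other neighbours differed by less than either SD.

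In SR vs. CT the Aqp4 log2 fold change was -0.17 (SE 0.071, 95% CI -0.31 to -0.021), with an unadjusted p of 0.0262 and an adjusted p of 0.421 by edgeR, and an exact two-sided permutation p of 0.0717. This made 1 of the 6 members past the unadjusted threshold and 0 past the adjusted one, in a comparison in which 0% of all tested genes passed with the adjusted p and 10.5% with the unadjusted p. In SR vs. SS it was -0.18 (SE 0.074, 95% CI -0.33 to -0.029), unadjusted p = 0.0208 and adjusted p = 0.616 by edgeR, exact permutation p = 0.0291, and 0% of all tested genes passed with the adjusted p and 7.46% with the unadjusted p. In YSR vs. CT it was -0.17 (SE 0.078, 95% CI -0.33 to -0.0086), unadjusted p = 0.0395 and adjusted p = 0.636 by edgeR, exact permutation p = 0.0758, where 0.12% of all tested genes passed with the adjusted p and 7.56% with the unadjusted p. The test of any difference among the 5 groups gave Aqp4 an unadjusted p of 0.0437 and an adjusted p of 0.661 by edgeR, and 0.171% of all tested genes passed with the adjusted p and 7.32% with the unadjusted p. Within XIII alone the Aqp4 log2 fold change was -0.051 in SR vs. CT, -0.017 in SR vs. SS and -0.25 in YSR vs. CT (unadjusted p = 0.00731 and adjusted p = 0.783 by edgeR), and within XII alone it was -0.35 in SR vs. SS (4 against 2 rats). With cohort in the fit of all rats the values were close to those without it, -0.17 in SR vs. CT (unadjusted p = 0.0346, adjusted p = 0.704 by edgeR), -0.18 in SR vs. SS (unadjusted p = 0.0235, adjusted p = 0.687) and -0.17 in YSR vs. CT (unadjusted p = 0.0522, adjusted p = 0.88). XII held a single CT rat, so the comparisons with CT have no value of their own there. Without SR rat XII-R05 the value was -0.11 in SR vs. CT (unadjusted p = 0.092) and -0.12 in SR vs. SS (unadjusted p = 0.0676), by edgeR. Leaving out CT rat XIII-R05 or XIII-R12 also took SR vs. CT and YSR vs. CT past 0.05, as did SS rat XII-L03 for SR vs. SS and YSR rat XII-R06, XIII-R08 or XIII-R10 for YSR vs. CT. The test of any difference kept an unadjusted p under 0.05 for Aqp4 in 17 of the 30 fits without a library, and by edgeR missed it with cohort in the fit (adjusted p = 0.78, unadjusted p = 0.0688) or with the letter (adjusted p = 0.699, unadjusted p = 0.0517). Between SR and YSR, which both received foot-shocks but differed in the drug, the Aqp4 difference was 0.0019 (SE 0.078, 95% CI -0.16 to 0.16). The cohorts had opposite signs, with 0.20 within XIII alone (unadjusted p = 0.0446 by edgeR, not under 0.05 when adjusted) and -0.14 within XII alone.

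Gja1 encodes connexin 43, the main gap junction protein of astrocytes. Its levels ran from 415 to 593 CPM over all 30 rats, and both ends were YSS rats. The other groups lay inside that range. The lowest, median and highest Gja1 levels were 453, 476 and 521 CPM in CT rats. For SR rats they were 434, 523 and 559.5 CPM. For SS rats they were 445, 511 and 554 CPM. SR and SS rats reached both lower and higher than CT rats, and all 3 groups overlapped. The YSR rats had Gja1 levels of 451, 459, 474, 496 and 508 CPM, inside the range of the CT rats except for XII-R10. The group means lay between 466.3 ± 72.8 CPM in YSS and 503 ± 45.5 CPM in SS. The YSS rats had 415, 425, 445, 453 and 593 CPM, so that the XII rat of that group, XII-R04, stood apart from the 4 XIII rats, which lay in the lower part of the range of all rats. The log2 fold change was -0.059 (SE 0.075, 95% CI -0.21 to 0.094) in YSS vs. CT, with an adjusted p of 0.983 by edgeR. Without XII-R04 it was -0.16 (unadjusted p = 0.023, adjusted p = 0.988 by edgeR), and SS vs. YSS moved from 0.11 to 0.21 (unadjusted p = 0.00521, adjusted p = 0.966). In METH vs. yoked, leaving out that rat moved Gja1 from 0.084 to 0.14 (unadjusted p = 0.00632, adjusted p = 0.457). In these fits a single rat thus decided on which side of the unadjusted threshold Gja1 fell, and on neither side did it pass the adjusted one. Within XIII alone, which also lacks that rat, Gja1 was at -0.17 in YSS vs. CT (unadjusted p = 0.0113 by edgeR). There it was at 0.16 in SS vs. YSS (unadjusted p = 0.0296) and 0.070 in METH vs. yoked (unadjusted p = 0.217), by edgeR.

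Slc1a2 encodes GLT-1, the transporter that removes most of the glutamate released in the forebrain, and which some axon terminals also carry. The lowest, median and highest Slc1a2 levels in CT rats were 274, 343 and 447 CPM. In SR rats they were 217, 319 and 426 CPM, the widest range of any group. In SS rats they were 315, 339 and 411 CPM. CT and SR rats were spread over most of the range of all rats, and the SS rats, apart from XIII-L05, lay close together inside it. The YSR rats had Slc1a2 levels of 289, 297, 316, 327 and 356 CPM. The YSS rats had 225, 289, 301, 324 and 340.2 CPM. YSS rat XIII-L04 was next to the lowest of all rats, above only SR rat XII-R05, and the YSS and SS ranges overlapped. Mean levels ran in the order SS (347 ± 33.2 CPM), CT (345 ± 59), YSR (317 ± 26.6), SR (317 ± 66.1) and YSS (296 ± 44.4), with no step beyond the SD of both neighbours. In SS vs. YSS the log2 fold change was 0.23 (SE 0.12, 95% CI -0.023 to 0.49), with an unadjusted p of 0.0728 and an adjusted p of 0.995 by edgeR, and an exact permutation p of 0.0303. With only the SS and YSS rats in the fit its unadjusted p was 0.0236 and its adjusted p 0.999 by edgeR, and within XIII alone the value was 0.30. Across fits without 1 library the value lay between 0.15 and 0.29, with unadjusted p from 0.0399 to 0.253 by edgeR. In YSS vs. CT the log2 fold change was -0.22 (SE 0.12, 95% CI -0.47 to 0.026), adjusted p = 0.98 by edgeR. Without 1 library it lay between -0.28 and -0.14, with an unadjusted p under 0.05 by edgeR in 4 of 30 fits. Within XIII alone it was -0.28 (unadjusted p = 0.0378, adjusted p = 0.801 by edgeR). In SR vs. YSR the log2 fold change was 0.00 (SE 0.12, 95% CI -0.25 to 0.25). The SR vs. YSR value was 0.25 within XIII alone and -0.20 within XII alone, so that it too had opposite signs in the cohorts. Whether the difference between METH and yoked rats itself differed between shock-resistant and shock-sensitive pairs was tested by the interaction, (SR - YSR) - (SS - YSS), which was -0.23 (SE 0.17, 95% CI -0.59 to 0.12) with an adjusted p of 0.952 by edgeR, and -0.054 within XIII alone.

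Slc1a3 encodes GLAST, the other astrocyte glutamate transporter. Slc1a3 levels ran from 741 CPM, in YSR rat XIII-R08, to 1044 CPM, in SS rat XII-R03, and the group means from 833 ± 69.7 CPM in YSS to 895 ± 119 CPM in SS. The lowest, median and highest Slc1a3 levels of the CT rats were 796, 814 and 949.5 CPM. Those of the SR rats were 792, 839 and 1035 CPM. The range of the SR rats covered that of the CT rats, and SR rat XIII-R09 lay above the highest CT rat. Those of the SS rats were 778, 873 and 1044 CPM. The YSR rats had Slc1a3 levels of 741, 806, 843, 899.5 and 929 CPM. The YSS rats had 767, 798, 812, 839 and 949 CPM. Both SS rats of XII and SR rat XIII-R09 lay above all other rats, and the rest of the 5 groups lay in a common range. The Slc1a3 difference farthest from 0 was 0.10 (SE 0.079, 95% CI -0.057 to 0.26) in SS vs. YSS, with an adjusted p of 0.995 by edgeR and an exact permutation p of 0.353, and within XIII alone it was 0.040. Fits without 1 library put it between 0.055 and 0.15.

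**Figure D2:**
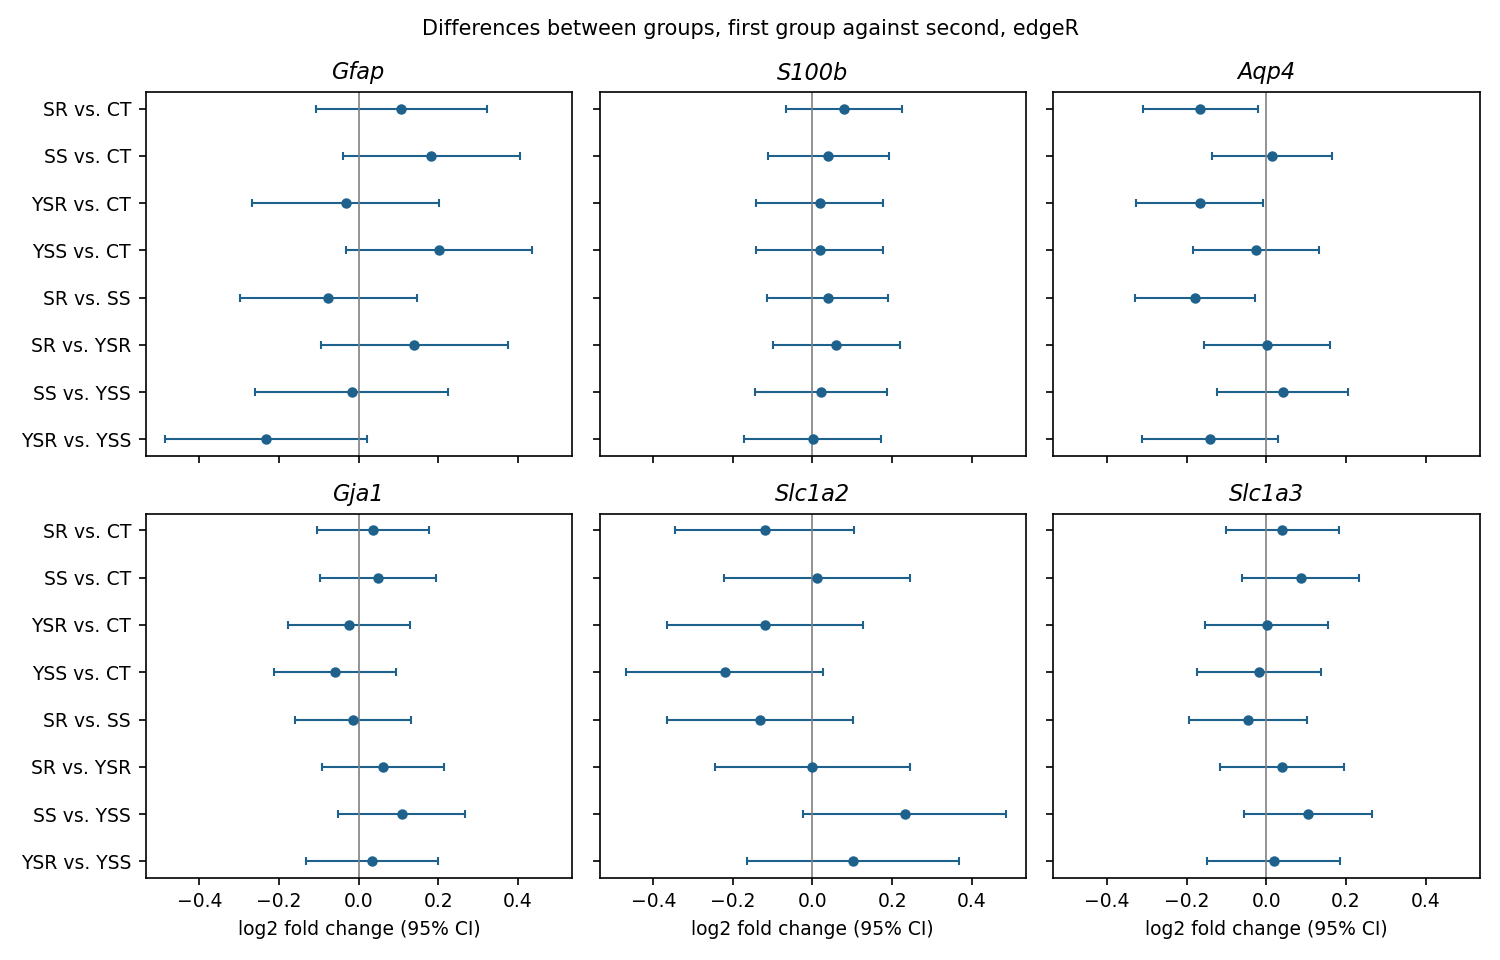
Log2 fold changes (horizontal axes) of each gene in the 8 pairwise comparisons, first group against second, by edgeR on all 30 libraries; points are estimates and bars 95% confidence intervals, unadjusted. All intervals include 0 except those of Aqp4 in SR vs. CT, YSR vs. CT and SR vs. SS.

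Taken by comparison, the members' shares stood beside those of all 15797 genes. In SS vs. CT, 0 of 6 members passed either threshold, and 0.101% of all tested genes passed with the adjusted p and 5.01% with the unadjusted p. All 6 log2 fold changes were above 0 there, with a median of 0.044 against 0.0047 over all genes, but within XIII alone 5 of them were below 0 (Slc1a2 was the exception). In YSS vs. CT, again 0 of 6 passed, and 0.0823% of all tested genes passed with the adjusted p and 5.01% with the unadjusted p. The members' log2 fold changes there ran from -0.22 for Slc1a2 to 0.20 for Gfap, with a median of -0.022 beside -0.0016 for all genes. In SR vs. YSR, which sets METH against saline in rats that all received foot-shocks, 0 of 6 passed. Of all tested genes, 0.0253% passed there with the adjusted p and 8.17% with the unadjusted p. The labels name no yoked pairs, so whether the sequenced rats of both groups had equal numbers of shocks was not checked. In SS vs. YSS, 0 of 6 passed, and 0% of all tested genes passed with the adjusted p and 4.27% with the unadjusted p. The median of the members was 0.050 in SR vs. YSR and 0.072 in SS vs. YSS, beside 0.0010 and 0.0052 over all genes. In YSR vs. YSS, where neither group had METH, 0 of 6 passed, and 0% of all tested genes passed with the adjusted p and 3.29% with the unadjusted p.

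Contrasts over several groups gave the same counts. In METH vs. yoked, the mean of SR and SS against the mean of YSR and YSS, 0 of 6 members passed either threshold by edgeR, and 0% of all tested genes passed with the adjusted p and 7.48% with the unadjusted p. All 6 values were above 0, from 0.021 for Aqp4 to 0.12 for Slc1a2, with a median of 0.066 against 0.0019 over all genes. The 95% confidence interval of Slc1a2 reached 0.29 and that of Gfap 0.23 in the fit of all rats with group alone. These limits hold for that fit only and do not exclude larger METH differences under other settings. Within XIII alone Gfap and S100b were at -0.046 and -0.032, below 0, and Slc1a2 was at 0.27 (unadjusted p = 0.0228, adjusted p = 0.609 by edgeR). In yoked vs. CT, the mean of YSR and YSS against CT, which sets foot-shock without drug against no foot-shock, 0 of 6 passed, and 0.146% of all tested genes passed with the adjusted p and 7.7% with the unadjusted p. Gfap stood at 0.084 (SE 0.10, 95% CI -0.11 to 0.28) and Slc1a2 at -0.17 (SE 0.10, 95% CI -0.38 to 0.036) in this contrast. Aqp4 stood at -0.10 (SE 0.065, 95% CI -0.23 to 0.036), and within XIII alone at -0.16 (unadjusted p = 0.0168, adjusted p = 0.642 by edgeR), the only member under 0.05 unadjusted there. For the interaction, 0 of 6 passed, and 0% of all tested genes passed with the adjusted p and 5.43% with the unadjusted p.

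Levels were also set against cohort, a look taken after the data were seen. In the edgeR fit with group and cohort, 5 of 6 members had a difference above 0, XII minus XIII, and 4 had an unadjusted p under 0.05 and 0 an adjusted one. Over all genes, 0.481% passed with the adjusted p and 16.4% with the unadjusted p. S100b averaged 1127 ± 97.1 CPM in XII (n = 11) and 1001 ± 69.9 CPM in XIII (n = 19), with ranges of 1002 to 1375 and 872 to 1198 that overlapped. Its log2 difference was 0.18 (SE 0.044, 95% CI 0.089 to 0.27), with an unadjusted p of 0.000315 and an adjusted p of 0.0538 by edgeR. For Gfap it was 0.21 (SE 0.072, 95% CI 0.062 to 0.36), adjusted p = 0.136, and for Aqp4 0.0015 (95% CI -0.11 to 0.11). Slc1a3 and Gja1 had 0.11 and 0.11, and Slc1a2 had -0.087. Within XII alone, a setting also chosen after seeing the data, SR vs. SS (4 against 2 rats) had a log2 fold change of -0.28 for Gfap, -0.35 for Aqp4, -0.28 for Slc1a2, -0.27 for Slc1a3, -0.18 for S100b and -0.061 for Gja1. All but Gja1 had an unadjusted p under 0.05 by edgeR, as did 8.32% of all genes, and the smallest adjusted p of a member was 0.42. The SR and SS ranges of XII did not overlap for Gfap, Aqp4, Slc1a2 and Slc1a3, while those of XIII overlapped for every member. The share of all tested genes whose SR and SS ranges did not overlap in XII was not examined. With 4 against 2 rats, whether these members differ from other genes in this was therefore not tested. What the codes XII and XIII stand for is not given in the sources used here, and the part of cohort in the differences between groups was examined only by the fits within a cohort and with cohort as a term.

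Across rats, several of the genes varied together. Of the 15 pairs of members, 7 correlated with an adjusted p under 0.05 over 30 rats by Pearson's r and 6 by Spearman's rho, r lying between -0.085 and 0.73. The share of correlated pairs among all tested genes was not examined, so whether 7 of 15 is more than for other genes was not tested. Slc1a3 and S100b had r = 0.73 (permutation p = 1e-05, adjusted 0.00015) and rho = 0.68 (permutation p = 7e-05, adjusted 0.00105), where 1e-05 is the smallest p that 100000 resamples can give. Within XII r was 0.66 (n = 11) and within XIII 0.67 (n = 19), on residuals from the group means it was 0.75, and without the 2 rats farthest from the median of Slc1a3 it was 0.69. Rats with more Slc1a3 RNA thus tended to have more S100b RNA, and the relation was also seen on residuals, that is, inside the groups. Aqp4 and Slc1a2 had r = 0.70 (permutation p = 2e-05, adjusted 0.00015) and rho = 0.63 (permutation p = 0.00028, adjusted 0.0021). For this pair r was 0.94 within XII, 0.55 within XIII, 0.76 on residuals and 0.57 without the 2 rats farthest from the Aqp4 median. Gfap and S100b had r = 0.65 (permutation p = 0.00013, adjusted 0.00065) and rho = 0.59 (permutation p = 0.00066, adjusted 0.0033), with r = 0.73 within XII, 0.47 within XIII, 0.71 on residuals and 0.54 without 2 rats.

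The other 4 pairs past the threshold linked Gja1 with S100b, Slc1a3 and Gfap, and Gfap with Slc1a3, and each of them missed it once the 2 farthest rats were left out. S100b and Gja1 had r = 0.48 (permutation p = 0.00689, adjusted 0.0178) and rho = 0.46 (permutation p = 0.0105, adjusted 0.0394), with r = 0.39 within XII, 0.29 within XIII, 0.48 on residuals and 0.39 without 2 rats. Slc1a3 and Gja1 had r = 0.48 (permutation p = 0.00713, adjusted 0.0178) and rho = 0.44 (permutation p = 0.0147, adjusted 0.044), with r = 0.37 within XII, 0.41 within XIII, 0.45 on residuals and 0.44 without 2 rats. Gfap and Gja1 had r = 0.42 (permutation p = 0.0208, adjusted 0.0445) and rho = 0.38 (permutation p = 0.0391, adjusted 0.0838), with r = 0.59 within XII, 0.13 within XIII, 0.49 on residuals and 0.33 without 2 rats. By rho alone, the 2 glutamate transporters also passed: Slc1a2 and Slc1a3 had r = 0.38 (permutation p = 0.0365, adjusted 0.0685) and rho = 0.43 (permutation p = 0.0191, adjusted 0.0478), with r = 0.60 within XII, 0.48 within XIII, 0.37 on residuals and 0.36 without 2 rats. The r of Gfap with Gja1 and with Slc1a3 was lower in XIII than in XII, a contrast that was not tested. Gfap and Slc1a3 had r = 0.50 (permutation p = 0.00496, adjusted 0.0178) and rho = 0.33 (permutation p = 0.0798, adjusted 0.133), with r = 0.71 within XII, 0.23 within XIII, 0.52 on residuals and 0.30 without 2 rats. Gfap had r = -0.051 and rho = -0.044 with Slc1a2 (permutation p = 0.792 and 0.818), and the lowest r, -0.085, was that of Slc1a2 with S100b.

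Library measures were set beside these levels. Of 18 relations of a member to the total count, the mitochondrial share of counts or the first principal component of all other tested genes, 0 had an adjusted p under 0.05. Gja1 with the mitochondrial share came nearest, with r = 0.42 (permutation p = 0.0188, adjusted 0.339) and rho = 0.41 (permutation p = 0.0261, adjusted 0.471), and r was 0.35 within XII, 0.28 within XIII, 0.48 on residuals and 0.31 without the 2 rats farthest from the median share.

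The pattern over the 30 rats was also compared with that of every other tested gene. The closest match of any member was that of Slc1a2 with ENSRNOG00000005391, a gene on chromosome 5, with r = 0.87, followed by ENSRNOG00000061337, on chromosome 8, with r = 0.86, both picked from 15796 genes and given without a p. Slc1a2 had 119 genes with r over 0.7 and S100b 113, against 23 for Slc1a3, 11 for Aqp4, 6 for Gfap and 1 for Gja1. No member was the closest match of another, the nearest being Slc1a2, which ranked 12 among the genes most like Aqp4, and S100b, which ranked 15 for Slc1a3. Markers of reactive astrocytes, other astrocyte genes, microglia, oligodendrocytes, neurons, vessels and other cells were not analysed here. They were listed by symbol, and 0 of the 32552 identifiers matched the gene table used.

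**Figure D3:**
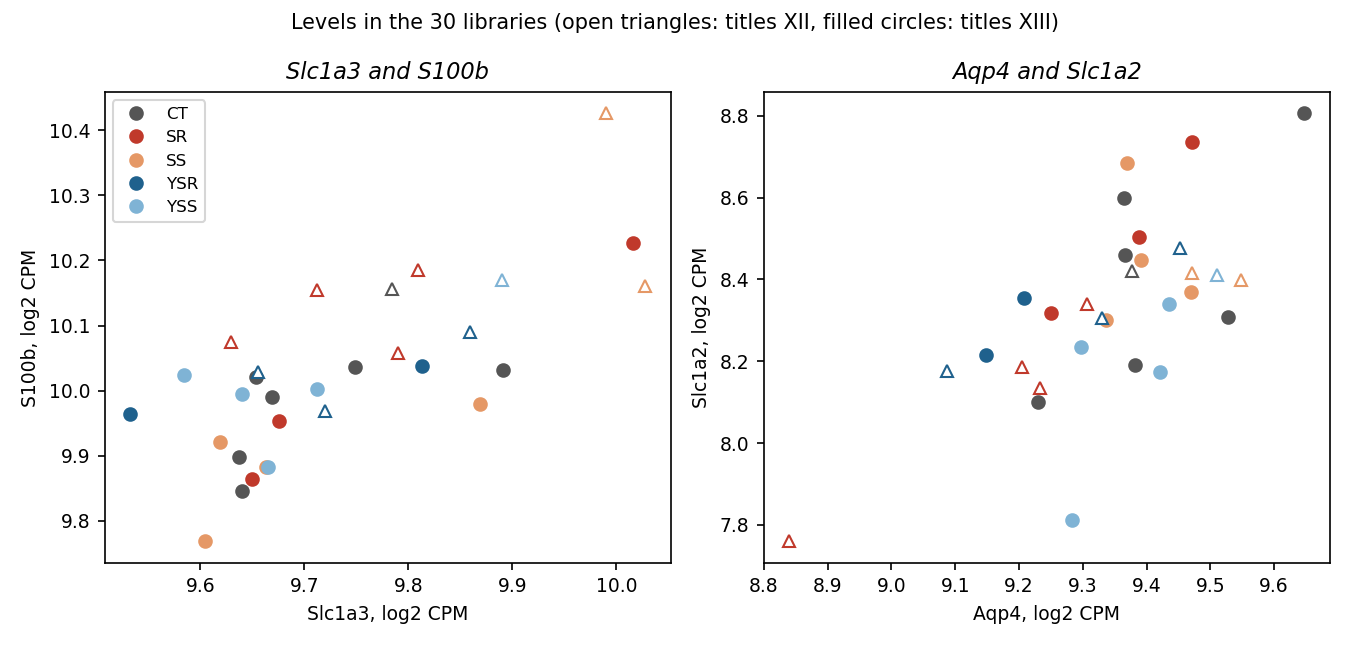
Log2 CPM of Slc1a3 (horizontal) and S100b (vertical), left, and of Aqp4 (horizontal) and Slc1a2 (vertical), right, in the 30 rats, colored by group; open triangles are rats of XII and filled circles those of XIII. Over all 30 rats r = 0.73 and 0.70, and SR rat XII-R05 lies at the lower left of the right panel.

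The bases before the starts of Slc1a3 and S100b, the pair of members with the highest r, are shown as RefSeq's table for GRCr8 gives them. That table had 10 such windows of 250 bases for the 6 members, with several starts for some genes. Whether these bases have a part in the correlation was not tested. Capitals mark matches, on either strand, to the core of nuclear factor I (TTGGC or GCCAA), a family of factors known for its part in making astrocytes, and to the SOX core (ACAAT or ATTGT), whose SOX9 form is an astrocyte factor. The Slc1a3 window is chr2:59557809-59558058 and the S100b window chr20:12381082-12381331, both on the minus strand and written 5′ to 3′.
Slc1a3: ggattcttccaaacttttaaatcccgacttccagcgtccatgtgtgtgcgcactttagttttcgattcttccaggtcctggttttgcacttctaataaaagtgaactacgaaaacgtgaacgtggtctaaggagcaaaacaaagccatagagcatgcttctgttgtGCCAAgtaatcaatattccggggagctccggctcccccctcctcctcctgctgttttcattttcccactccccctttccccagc
S100b: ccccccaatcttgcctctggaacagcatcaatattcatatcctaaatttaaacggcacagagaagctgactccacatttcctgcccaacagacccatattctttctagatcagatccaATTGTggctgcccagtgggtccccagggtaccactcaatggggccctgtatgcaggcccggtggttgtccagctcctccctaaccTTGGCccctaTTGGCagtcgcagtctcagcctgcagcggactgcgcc
The nuclear factor I core was found in windows of 3 of the 6 members (S100b, Slc1a2 and Slc1a3) and in 42.3% of all genes in the table, and the nuclear factor I palindrome, which contains that core, in 0 of 6 and in 0.0401%. A SOX core stood before S100b alone (1 of 6, and 31.4% of all genes), an AP-1 site (TGANTCA, the same on both strands) before Gja1 alone (1 of 6, and 6.99%) and a glucocorticoid receptor core (TGTTCT or AGAACA) before Slc1a2 alone (1 of 6, and 18.5%). The glucocorticoid receptor palindrome (0 of 6, and 0.00364%), the STAT site TTCNNNGAA (0 of 6, and 8.19%) and the TATA box TATAAA or TTTATA (0 of 6, and 14.1%) were not in these windows. A match is a run of letters and not a measured binding site.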

How the data were processed

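The authors deposited 1 table of raw read counts per Ensembl gene for each of 30 rats, in which every gene model has its coordinates; per the labels, reads were demultiplexed with bcl2fastq 2.17, trimmed with Trimmomatic 0.36, aligned with STAR 2.5.2b and counted with featureCounts of Subread 1.5.2. The genome build and annotation release are not given in the sources used here. Counts were analyzed in R 4.3.3 with edgeR 4.0.16 (TMM, default filter on low counts, quasi-likelihood test, 1 factor of 5 groups over all 30 libraries, Benjamini-Hochberg over 15797 genes), after tests on simulated data. CPM are TMM-normalized, and log2 CPM used a prior count of 2. Exact two-sided permutation tests of log2 CPM were run for the 48 pairwise member comparisons without adjustment, and correlations used 100000 permutations, adjusted over 15 pairs or 18 relations. Depths were 14584340 to 19997820 counts, and 3 counts equal at most 0.206 CPM. Alternatives were DESeq2 1.42.0, median-ratio size factors, no or a stricter filter (10 counts in every sample), cohort or letter as a covariate, 1 cohort alone, only the groups compared, Tukey's test on log2 CPM and each library left out. The members and lists were chosen with earlier results of these data known. Named genes are all members and, for likeness, those with the highest Pearson r, with at most 2 identifiers printed. Gene lists by symbol were not analysed here because 0 of 32552 identifiers matched.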

Additional observations from a re-analysis of the deposited data

Results flagged for a closer look

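A library far from the rest of its group was looked for in 45 sets of values (the 6 genes, the total count, the mitochondrial share and the members' share of counts, each in 5 groups), and 2 were found, against about 2.25 expected by chance. Slc1a2 in SS rat XIII-L05, at 411 CPM, lay above the other SS rats, which had 315 to 349 CPM. Gja1 in YSS rat XII-R04, at 593 CPM, lay above the other YSS rats, which had 415 to 453 CPM, and it was the only YSS rat of its cohort.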

How the results depend on the processing

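No member had an adjusted p under 0.05 in any comparison under any setting run (0 of 2868 tests), and the smallest adjusted p was 0.246. No test above paired the rats, because the labels do not name the rat to which each yoked rat was yoked. Joining each METH rat to the yoked rat of the same cohort and letter whose title number is 1 above gives 3 SR-YSR and 4 SS-YSS pairs of rats, which may or may not be yoked pairs. In this look, taken after seeing the data, the deviations of joined rats from their group means over all genes correlated with r from 0.11 to 0.24 for SR with YSR, over 0.1 in 3 of 3, and from -0.14 to 0.046 for SS with YSS, over 0.1 in 0 of 4. With a yoked number 1 below instead, it passed 0.1 in 0 of 2 and 0 of 3, and between all other such rats of the same cohort in 3 of 13 and 3 of 11. The choice of 1 above is not given by the labels. Whether the numbers mark pairs cannot be told from this. The mean log2 differences of joined rats (number above 0) were Gfap 0.15 (2 of 3), Aqp4 0.039 (2 of 3), Slc1a2 0.023 (2 of 3), Slc1a3 0.13 (3 of 3), S100b 0.10 (2 of 3) and Gja1 -0.076 (1 of 3) in SR vs. YSR, and Gfap -0.026 (2 of 4), Aqp4 0.044 (2 of 4), Slc1a2 0.28 (4 of 4), Slc1a3 0.078 (3 of 4), S100b -0.072 (0 of 4) and Gja1 0.12 (3 of 4) in SS vs. YSS. The smallest exact sign-flip p possible, 0.25 and 0.125, was reached by Slc1a3 in SR vs. YSR and by Slc1a2 and S100b in SS vs. YSS. Every member had at least 3683 counts in every library. Under alternatives other than leaving out a library, 50 of 588 differences changed sign, the largest of them 0.18 at first (Gfap in SS vs. CT); 1 had an unadjusted p under 0.05 (S100b in SR vs. SS, XII alone), none passed the adjusted threshold, and the cause was not tested. The new log2 fold changes follow. With DESeq2, Slc1a3 -0.0038 in YSR vs. CT and S100b -0.0030 in YSR vs. YSS. With Tukey's test on log2 CPM, Aqp4 -0.0036 and Slc1a2 -0.024 in SR vs. YSR and Slc1a3 -0.0013 in YSR vs. CT. With all genes of at least 1 count, Slc1a3 -0.0010 in YSR vs. CT and S100b -0.0067 in YSR vs. YSS. With genes of at least 10 counts in every sample, Slc1a3 -0.0058 in YSR vs. CT and S100b -0.0065 in YSR vs. YSS. In XII alone (chosen after seeing the data), S100b -0.18 in SR vs. SS and Aqp4 -0.14, Slc1a2 -0.20 and Slc1a3 -0.0044 in SR vs. YSR. In XIII alone, Gfap -0.046 and S100b -0.032 in METH vs. yoked, Gfap -0.038, Gja1 -0.035 and Slc1a2 0.10 in SR vs. CT, Slc1a2 0.075 and Slc1a3 0.10 in SR vs. SS, Gja1 -0.018 in SR vs. YSR, Aqp4 -0.035, Gfap -0.0071, Gja1 -0.015, S100b -0.084 and Slc1a3 -0.018 in SS vs. CT, S100b -0.089 in SS vs. YSS, Slc1a3 -0.033 in YSR vs. CT and Aqp4 0.17 and Slc1a3 0.075 in interaction. With cohort as a covariate, Gja1 -0.014 and Slc1a3 -0.0068 in SR vs. CT, Slc1a2 -0.0089 in SR vs. YSR, S100b -0.0023 in SS vs. CT, S100b -0.0091 in SS vs. YSS, S100b -0.060 and Slc1a3 -0.052 in YSR vs. CT, Gja1 -0.0030, S100b -0.067 and Slc1a3 -0.025 in YSR vs. YSS and S100b -0.027 in yoked vs. CT. With the letter as a covariate, S100b -0.0049 and Slc1a3 -0.032 in YSR vs. CT, S100b -0.049 and Slc1a3 -0.049 in YSR vs. YSS and Slc1a3 0.017 in YSS vs. CT. With median-ratio size factors, Slc1a3 -0.0038 in YSR vs. CT and S100b -0.0030 in YSR vs. YSS. With only the groups compared, Slc1a3 -0.0043 in YSR vs. CT and S100b -0.0015 in YSR vs. YSS.

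The number of members with an unadjusted p under 0.05 (1 in SR vs. CT, YSR vs. CT, SR vs. SS and any difference, otherwise 0) changed as follows (a lost call need not be a smaller difference: Aqp4 stood at -0.17 in YSR vs. CT with cohort as a covariate, and at -0.17 in SR vs. CT with only the groups compared), with the share of all tested genes under 0.05 in parentheses. With Tukey's test on log2 CPM, 0 in SR vs. CT (1.91%), SR vs. SS (1.2%), YSR vs. CT (1.3%) and any difference (7.04%). Tukey's p-values for pairs of groups are already adjusted over those pairs. The Aqp4 differences in log2 CPM were -0.17 in SR vs. CT, -0.19 in SR vs. SS and -0.17 in YSR vs. CT. In XII alone (chosen after seeing the data), 5 in SR vs. SS (8.32%) and 1 in SR vs. YSR (9.44%). In XIII alone, 1 in METH vs. yoked (7.27%), SR vs. YSR (4.54%), YSR vs. YSS (3.99%) and yoked vs. CT (7.09%), 0 in SR vs. CT (7.19%), SR vs. SS (6.74%) and any difference (6.6%) and 2 in SS vs. YSS (6.41%) and YSS vs. CT (6.07%). With cohort as a covariate, 0 in YSR vs. CT (5.61%) and any difference (6.75%) and 1 in YSR vs. YSS (3.75%). With the letter as a covariate, 1 in YSR vs. YSS (3.1%) and 0 in any difference (7.16%). With only the groups compared, 0 in SR vs. CT (9.91%), 1 in SS vs. YSS (4.5%) and YSS vs. CT (6.91%) and 2 in YSR vs. YSS (4.17%). Leaving out each library in turn gave 0 to 1 in METH vs. yoked, SR vs. CT, SR vs. SS, SS vs. CT, YSR vs. CT and yoked vs. CT and 0 to 2 in SS vs. YSS, YSR vs. YSS, YSS vs. CT and any difference, while 2.72% to 13.8% of all genes were under 0.05 in any such fit and comparison.

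Leaving out each library in turn changed the sign of 108 of 1980 values, in these ranges: Aqp4 -0.0002 to 0.051 in METH vs. yoked, -0.041 to 0.062 in SR vs. YSR, -0.015 to 0.055 in SS vs. CT, -0.058 to 0.015 in YSS vs. CT and -0.081 to 0.022 in interaction; S100b -0.0048 to 0.065 in METH vs. yoked, -0.0098 to 0.13 in SR vs. SS, -0.052 to 0.088 in SS vs. CT, -0.070 to 0.070 in SS vs. YSS, -0.0057 to 0.043 in YSR vs. CT, -0.035 to 0.037 in YSR vs. YSS, -0.023 to 0.049 in YSS vs. CT, -0.011 to 0.13 in interaction and -0.0061 to 0.043 in yoked vs. CT; Slc1a3 -0.012 to 0.068 in SR vs. CT, -0.10 to 0.0027 in SR vs. SS, -0.011 to 0.081 in SR vs. YSR, -0.041 to 0.039 in YSR vs. CT, -0.023 to 0.065 in YSR vs. YSS, -0.069 to 0.013 in YSS vs. CT and -0.037 to 0.022 in yoked vs. CT; Gja1 -0.048 to 0.018 in SR vs. SS and -0.0088 to 0.13 in YSR vs. YSS; Slc1a2 -0.088 to 0.074 in SR vs. YSR and -0.043 to 0.084 in SS vs. CT; Gfap -0.089 to 0.042 in SS vs. YSS and -0.087 to 0.011 in YSR vs. CT.

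Of 7 correlated pairs, 3 had an adjusted p under 0.05 without the 2 farthest rats, 7 on residuals, 1 in XII alone and 1 in XIII alone. The r of Gfap with Slc1a2 was 0.11 in XII, and that of Slc1a2 with S100b was 0.13 in XII and 0.0026 without 2 rats.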
